A study of Rattus norvegicus with 6 samples.

Results

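The miRNAs described here are the mature arms of the miR-146a, miR-146b and miR-155 hairpins, 6 of the 728 miRNAs listed in the count table, and they were chosen by name. The names are rno-miR-146a-5p, rno-miR-146a-3p, rno-miR-146b-5p, rno-miR-146b-3p, rno-miR-155-5p and rno-miR-155-3p (rno stands for rat). They were followed in 3 libraries of cardiac fibroblasts and 3 libraries of the exosomes, small membrane vesicles, that such fibroblasts released into culture medium. The cells came from hearts of Wistar rats at postnatal day 1 to 2, and the labels name no genetic change or drug in either group. They were grown with 10% serum. The exosome RNA came from medium that had stayed on the cells for 48 h with 1% serum freed of exosomes, cleared by filtration and spun in an ultracentrifuge. The same 48 h and 1% serum are listed for the fibroblast libraries. The labels do not say whether replicates were separate cultures, so every p-value measures the spread between these libraries, which may be technical.

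A hairpin precursor yields a 5p and a 3p strand, and usually 1 of them, the guide, is kept by Argonaute and pairs with messenger RNAs through its seed, bases 2 to 8. miR-146a is induced by NF-κB downstream of Toll-like and interleukin-1 receptors. Both miR-146a and miR-146b repress TRAF6 and IRAK1 of the same pathway, which makes them a brake on inflammatory signalling. miR-155 comes from the BIC transcript, is induced in activated macrophages and lymphocytes, and represses SOCS1 and SHIP1, which are inhibitors of cytokine signalling. Both families are best known from immune cells and are also found in fibroblasts.

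The mature sequences are shown first because the seeds decide which members can act alike, and the bases shared along the whole strand decide which reads can be confused. All 6 were found by name in the RefSeq miRNA table (build GRCr8), with the seed in capitals:
rno-miR-146a-5p: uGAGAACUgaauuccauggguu
rno-miR-146b-5p: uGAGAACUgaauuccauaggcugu
rno-miR-155-5p: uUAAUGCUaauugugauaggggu
rno-miR-146a-3p: aCCUGUGAaguucaguucuuu
rno-miR-146b-3p: cCUAGGGAcucaguucuggug
rno-miR-155-3p: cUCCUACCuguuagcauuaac

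The 5p arms of miR-146a and miR-146b carried the same seed, and no other of the 693 mature rat sequences in that table had it. They shared their first 17 bases. Counted from the 5′ end of miR-146a-5p, they differed by G18A and U21C, and miR-146b-5p had 2 more bases at its 3′ end. A read cut short at its 3′ end can fit both, so the split of counts between these 2 entries is uncertain, and their sum is given below as well. The seeds of miR-155-5p and of each 3p arm were found in no other mature sequence of the table. The 3p arms of miR-146a and miR-146b differed at 15 of 21 positions when aligned from the first base. The mature arms were 21 to 24 bases long.

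The hairpins, with both mature arms in capitals, show the strands whose ratio is compared below:
Mir146a: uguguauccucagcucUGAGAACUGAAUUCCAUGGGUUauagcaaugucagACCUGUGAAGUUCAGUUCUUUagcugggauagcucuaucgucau
Mir146b: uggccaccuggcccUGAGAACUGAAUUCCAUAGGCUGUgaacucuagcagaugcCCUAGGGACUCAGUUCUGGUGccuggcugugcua
Mir155: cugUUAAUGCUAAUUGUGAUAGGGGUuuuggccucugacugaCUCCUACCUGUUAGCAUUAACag

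In GRCr8 the Mir146a hairpin lies at chr10:28349996-28350090 on the minus strand within an uncharacterised long non-coding RNA gene. The Mir146b hairpin lies at chr1:255144860-255144947 on the plus strand within the span of the gene C1h10orf95. The Mir155 hairpin lies at chr11:37261114-37261178 on the plus strand within Mir155hg, the BIC host transcript. The submitters' processing notes name the older build rn5, and no position was converted between builds.

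Depth differed strongly between the groups. Exosome libraries held 113129 to 120224 miRNA counts and fibroblast libraries 2439559 to 12508651. A single miRNA, miR-873-3p, took most exosome counts, and without it 18164, 14338 and 11825 remained in exosome library 1, library 2 and the library without a number in its column name, called unnumbered here. A median miRNA had 3 to 8 counts in an exosome library, so that a member with 1 to 17 exosome counts is measured coarsely. Levels below are TMM-scaled CPM: the count is divided by the library total and by a scaling factor from edgeR (TMM), which centres the libraries on the bulk of the miRNAs. Fibroblast library 2 had the largest factor (1.99) and the unnumbered exosome library the smallest (0.433).

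The guide strand of each hairpin was well expressed in fibroblasts and scarce in exosomes. miR-146a-5p was 34.6-fold, miR-146b-5p 19.3-fold and miR-155-5p 10.2-fold lower in exosomes, while none of the 3p arms was called, that is, had an adjusted p under 0.05. Of the 698 miRNAs tested, 18.6% were lower and 11.3% higher in exosomes (quasi-likelihood test of edgeR, Benjamini-Hochberg adjustment over all miRNAs tested). For the 5p arms the exosome levels lay below all fibroblast levels, which held for 24.6% of tested miRNAs. The folds moved with the setting: without the unnumbered exosome library miR-146b-5p was 30.4-fold lower, and with the fibroblast libraries thinned to exosome depth miR-155-5p was 5.48-fold lower. With libraries sized by their reads outside the miRNA list the folds were 74.1, 47.1 and 21.6 for miR-146a-5p, miR-146b-5p and miR-155-5p. With totals without miR-873-3p and no TMM factors, a setting chosen after seeing the data, the folds were 4.60, 3.29 and 1.65 in the same order. There miR-146a-5p (edgeR adjusted p = 0.058) and miR-155-5p (edgeR adjusted p = 0.48) were not called.

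miR-146b-5p was the most abundant member in cells. It had 9381, 14587 and 1064 counts in fibroblast libraries 1, 2 and 4 and 7, 2 and 5 counts in exosome libraries 1, 2 and unnumbered. On the CPM scale this was 1520, 586 and 551 in fibroblasts and 43.4, 15.7 and 97.0 in exosomes. Fibroblast library 1 stood highest, the unnumbered library was the highest of the exosomes, and the groups did not overlap. The means were 886 ± 549.7 and 52.0 ± 41.4 CPM (SD, n = 3 each), and the log2 fold change was -4.27 (SE 0.87, edgeR adjusted p = 2.8e-05). Its rank by mean level was 64 of 728 in fibroblasts and 380 in exosomes.

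miR-146a-5p, which shares its seed, followed at a lower level. It had 3750, 2619 and 1022 counts in fibroblast libraries 1, 2 and 4 and 2, 1 and 1 counts in the exosome libraries. The fibroblast levels were 608, 105 and 529 CPM, so that library 2 lay well under the other two, and the exosome levels were 12.4, 7.84 and 19.4 CPM. The means were 414 ± 270.2 and 13.2 ± 5.83 CPM (SD, n = 3 each), with a log2 fold change of -5.11 (SE 0.89, edgeR adjusted p = 1.3e-06). The fold rests on 4 exosome counts in all, for which the exact 95% Poisson interval is 1.09 to 10.2 counts. All intervals given here reflect counting error alone, because amplified reads do not each stand for a separate molecule.

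miR-155-5p was the most even of the 3 guide strands among fibroblast libraries. Its counts were 2577, 6116 and 502 in fibroblast libraries 1, 2 and 4 and 4, 4 and 2 in exosome libraries 1, 2 and unnumbered. This gave 418, 246 and 260 CPM against 24.8, 31.3 and 38.8 CPM, with every exosome library below every fibroblast library on this scale. As a share of counts without miR-873-3p the groups overlapped, as given below. The means were 308 ± 95.4 and 31.6 ± 7.02 CPM (SD, n = 3 each), and the log2 fold change was -3.35 (SE 0.76, edgeR adjusted p = 0.00016). The 10 exosome counts have an exact 95% Poisson interval of 4.80 to 18.4.

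Within fibroblasts miR-146b-5p exceeded miR-146a-5p in each library, but by unequal amounts. The ratio of miR-146b-5p to miR-146a-5p was 2.50 in library 1, 5.57 in library 2 and 1.04 in library 4. In library 4 miR-146a-5p made up 49.0% of the counts of both (95% Clopper-Pearson interval 46.8 to 51.2), which does not separate them. The order of miR-146a-5p and miR-155-5p changed between libraries: miR-146a-5p was higher in libraries 1 and 4 and lower in library 2. With miR-146a-5p and miR-146b-5p summed into 1 entry, an alternative chosen after seeing the data, fibroblasts had 2128, 692 and 1079 CPM and exosomes 55.7, 23.5 and 116 CPM (log2 fold change -4.47, SE 0.92, edgeR adjusted p = 3.2e-05). In exosomes miR-146a-5p was 22.2%, 33.3% and 16.7% of the summed counts, from only 9, 3 and 6 counts, and a change of the family's make-up was not detectable at this depth.

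**Figure D1:**
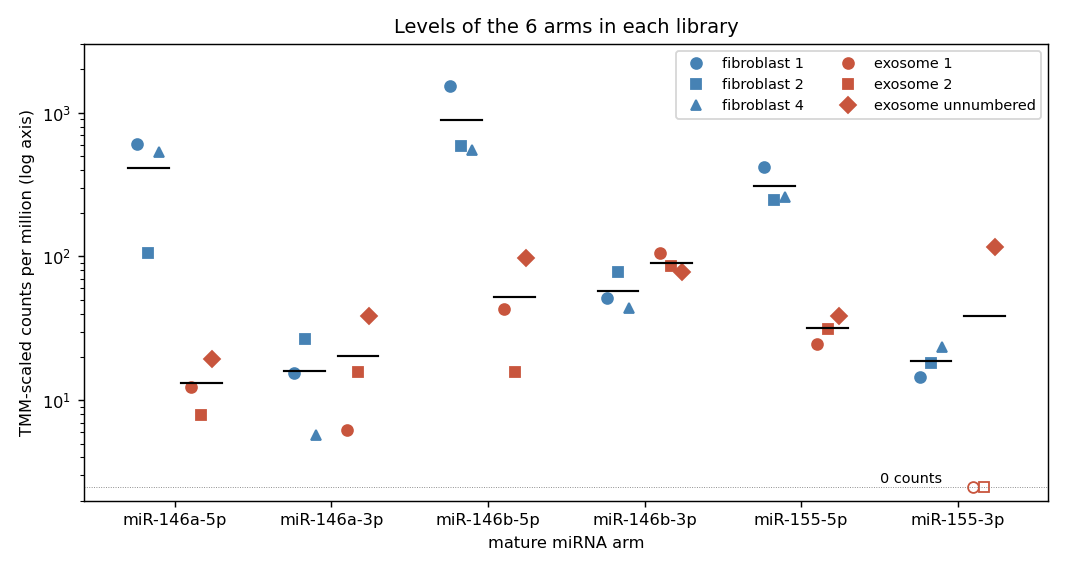
TMM-scaled CPM of each arm (vertical log axis) in 3 fibroblast libraries (blue) and 3 exosome libraries (red), with black lines at the group means and open symbols for 0 counts. The exosome points of the 5p arms lie below every fibroblast point, whereas the groups overlap for each 3p arm.

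The 3p arms had fewer counts than their 5p partners in every fibroblast library. miR-146b-3p was the most abundant of them, with 316, 1952 and 84 counts in fibroblast libraries 1, 2 and 4 and 17, 11 and 4 counts in the exosome libraries. Its levels were 51.2, 78.5 and 43.5 CPM in fibroblasts and 105, 86.2 and 77.6 CPM in exosomes, overlapping by the margin between fibroblast library 2 and the unnumbered exosome library. The log2 fold change was 0.66 (SE 0.61, edgeR adjusted p = 0.45). With 32 exosome counts, miR-146b-3p was the best covered member in exosomes and ranked 267 there, above all 3 guide strands.

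miR-146a-3p had 95, 665 and 11 fibroblast counts and 1, 2 and 2 exosome counts, or 15.4, 26.7 and 5.69 CPM against 6.19, 15.7 and 38.8 CPM. The ranges overlapped, and the log2 fold change was -0.02 (SE 1.02, edgeR adjusted p = 0.99). Its sign depends on the scaling and on the library left out, as given below, and with 5 exosome counts in all no direction can be read.

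miR-155-3p had 90, 453 and 45 fibroblast counts, with levels of 14.6, 18.2 and 23.3 CPM. In exosomes it had 0 counts in libraries 1 and 2 and 6 counts in the unnumbered library, which came to 116 CPM. Exosome libraries therefore lay on both sides of the fibroblasts, and the log2 fold change of 0.37 (SE 0.97, edgeR adjusted p = 0.82) rests on the unnumbered library. Without that library miR-155-3p was called lower (edgeR adjusted p = 0.037; the alternatives ranged from 0.037 to 0.90), at least 1.8-fold against a floor of 3 counts over both remaining exosome libraries. That floor over the 233353 counts of both libraries is a share of 0.00129%.

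**Figure D2:**
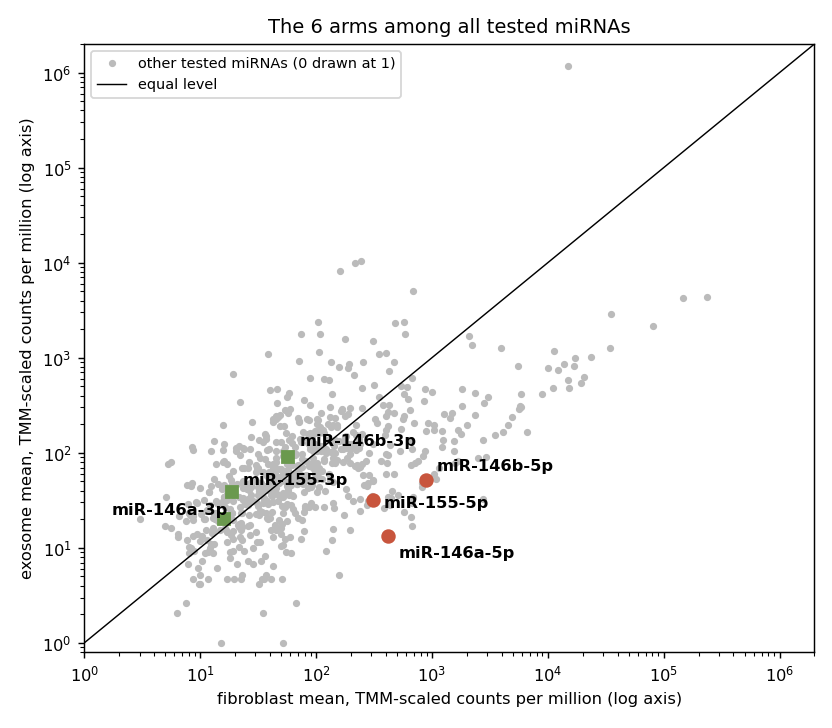
Mean level in exosomes (vertical log axis) against mean level in fibroblasts (horizontal log axis), both in TMM-scaled CPM, for all tested miRNAs (grey, a mean of 0 drawn at 1), the 5p arms (red circles) and the 3p arms (green squares). The 5p arms lie below the line of equal level and the 3p arms near it.

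The 5p arms lay among abundant fibroblast miRNAs, most of which were lower in exosomes. Of the 100 tested miRNAs at fibroblast ranks 51 to 150, a stretch chosen after seeing that it holds the 3 5p arms, 59 were lower, 5 higher and 36 not called. Their median log2 fold change was -2.29. All tested miRNAs had a median of -0.15, with 18.6% lower and 11.3% higher. The ranking uses the fibroblast level, which also enters the fold change, so it favours lower values in exosomes in advance. Within that stretch 2 miRNAs had a lower log2 fold change than miR-146a-5p, 12 a lower one than miR-146b-5p and 21 a lower one than miR-155-5p.

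The comparison of arms within a hairpin asked whether the 5p and 3p strands of the same precursor moved alike. For miR-146a and miR-146b the 5p arm was lower in exosomes relative to its 3p partner. For miR-155 that call rests on the unnumbered exosome library. Exosome libraries 1 and 2 had 4 counts each, all of the 5p arm, which are too few to show a direction. The difference between the log2 fold changes of 5p and 3p was -5.09 for miR-146a (edgeR's arm usage test, adjusted p = 0.0021), -4.93 for miR-146b (adjusted p = 4.0e-06) and -3.72 for miR-155 (adjusted p = 0.012, and 0.49 without the unnumbered library). Of the 248 hairpins with both arms tested, 17.3% were called in this direction. The strands of a hairpin share the library total, so this difference moves less with the scaling than a level does.

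For miR-146b the 5p arm was 96.7%, 88.2% and 92.7% of the counts of both arms in fibroblast libraries 1, 2 and 4. In exosome libraries 1, 2 and unnumbered it was 29.2% (95% Clopper-Pearson interval 12.6 to 51.1), 15.4% (1.92 to 45.4) and 55.6% (21.2 to 86.3), from 24, 13 and 9 counts. None of these intervals reached the lowest fibroblast share. The mean shares were 92.5% ± 4.27 in fibroblasts and 33.4% ± 20.4 in exosomes (SD, n = 3; exact permutation test, two-sided, p = 0.1, which is the lower limit for 3 against 3). In exosome libraries 1 and 2 the 3p strand thus had more counts, though the interval of library 1 also holds equal shares of both strands.

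For miR-146a the 5p share was 97.5%, 79.8% and 98.9% in fibroblasts, with library 2 apart from the other two. In exosomes it was 66.7%, 33.3% and 33.3%, from 3 counts in each library, and the 95% intervals reached up to 99.2%, 90.6% and 90.6%. Summed over the exosome libraries it was 4 of 9 counts, or 44.4% (95% Clopper-Pearson interval 13.7 to 78.8). The groups did not overlap (exact two-sided permutation p = 0.1), but in the reads behind the authors' normalized table, with 2, 3 and 1 exosome reads, they did (exact two-sided permutation p = 0.4), while the fitted arm usage stayed called there (edgeR adjusted p = 0.010).

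For miR-155 the 5p share was 96.6%, 93.1% and 91.8% in fibroblasts and 100% (4 of 4 counts), 100% (4 of 4 counts) and 25.0% (2 of 8 counts) in exosomes. The 95% Clopper-Pearson intervals were 39.8 to 100 for exosome libraries 1 and 2 and 3.19 to 65.1 for the unnumbered library. Exosome libraries 1 and 2 lay above the fibroblasts and the unnumbered library below, so the groups overlapped (exact two-sided permutation p = 1). The intervals of libraries 1 and 2 hold all 3 fibroblast shares, so their 100% shows no difference. Arm usage of miR-155 was also not called with total counts and no TMM factors (adjusted p = 0.098), and the adjusted p over all alternatives was 0.0062 to 0.59.

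**Figure D3:**
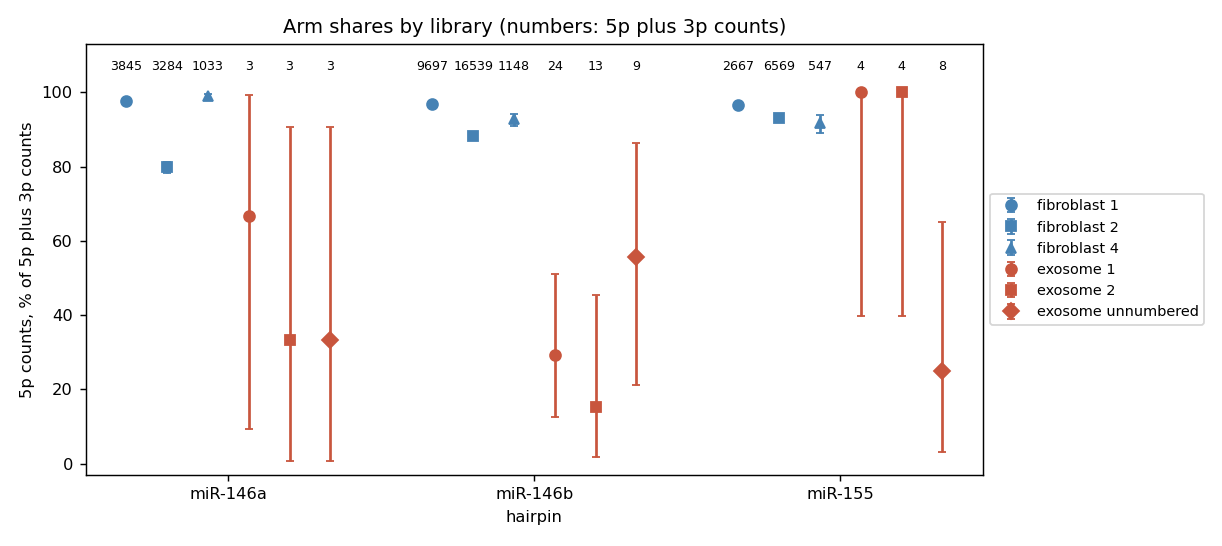
Share of 5p counts among 5p plus 3p counts of each hairpin (vertical axis, %), per library, with 95% Clopper-Pearson intervals and the number of counts printed above each point. Fibroblast shares lie between 79.8% and 98.9%, exosome shares of miR-146a and miR-146b lie lower, and those of miR-155 fall on both sides.

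As a share of all miRNA counts, the 6 arms together made up 0.254%, 0.211% and 0.112% in fibroblast libraries 1, 2 and 4 and 0.0258%, 0.0177% and 0.0168% in the exosome libraries. The means were 0.192% ± 0.0730 and 0.0201% ± 0.00495 (SD, n = 3; exact two-sided permutation p = 0.1). At the mean fibroblast share, exosome libraries 1, 2 and unnumbered would have held 123, 116 and 122 counts of miR-146b-5p, where 7, 2 and 5 were found. For miR-155-5p they would have held 44.0, 41.4 and 43.6 counts, where 4, 4 and 2 were found. With miR-873-3p left out of the totals, the numbers were 18.8, 14.9 and 12.2 for miR-146b-5p and 6.73, 5.31 and 4.38 for miR-155-5p.

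These shares are lowered in exosomes by miR-873-3p, and with it left out of the total the picture was different for each arm. The 6 arms were then 0.171%, 0.139% and 0.169% of exosome counts and 0.257%, 0.212% and 0.115% of fibroblast counts, which overlapped (exact two-sided permutation p = 0.5). The 5p arms were 0.0627% ± 0.0122 against 0.182% ± 0.0705 and remained without overlap, while the 3p arms were 0.0971% ± 0.00568 against 0.0128% ± 0.0103, with the exosomes above (SD, n = 3; exact two-sided permutation p = 0.1 for each). miR-146a-5p was 4.67-fold and miR-146b-5p 3.28-fold lower on this scale, and miR-155-5p 1.66-fold lower with overlapping groups (exact two-sided permutation p = 0.3).

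A fit with these totals and no TMM factors, chosen after seeing the data, shifted the median over all tested miRNAs from -0.15 to 2.37 on the log2 scale, with 378 called higher and 36 lower. The log2 fold changes there were -2.20 for miR-146a-5p (edgeR adjusted p = 0.058), -1.72 for miR-146b-5p (adjusted p = 0.0497) and -0.72 for miR-155-5p (adjusted p = 0.48), and miR-146b-3p was called higher (log2 3.09, adjusted p = 0.0012). The size of the decrease thus depends on what exosome counts are measured against. Relative to the median of all tested miRNAs in the same fit, miR-146a-5p lay at -5.41 to -4.37, miR-146b-5p at -4.96 to -3.39 and miR-155-5p at -3.36 to -2.43 on the log2 scale over the 17 or 18 edgeR and DESeq2 fits that gave a value. On that relative scale miR-146b-3p lay at 0.71 to 1.48 over 18 fits, miR-146a-3p at -0.76 to 0.76 over 14 and miR-155-3p at 0.13 to 1.56 over the 11 that did not rest on its bound.

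**Figure D4:**
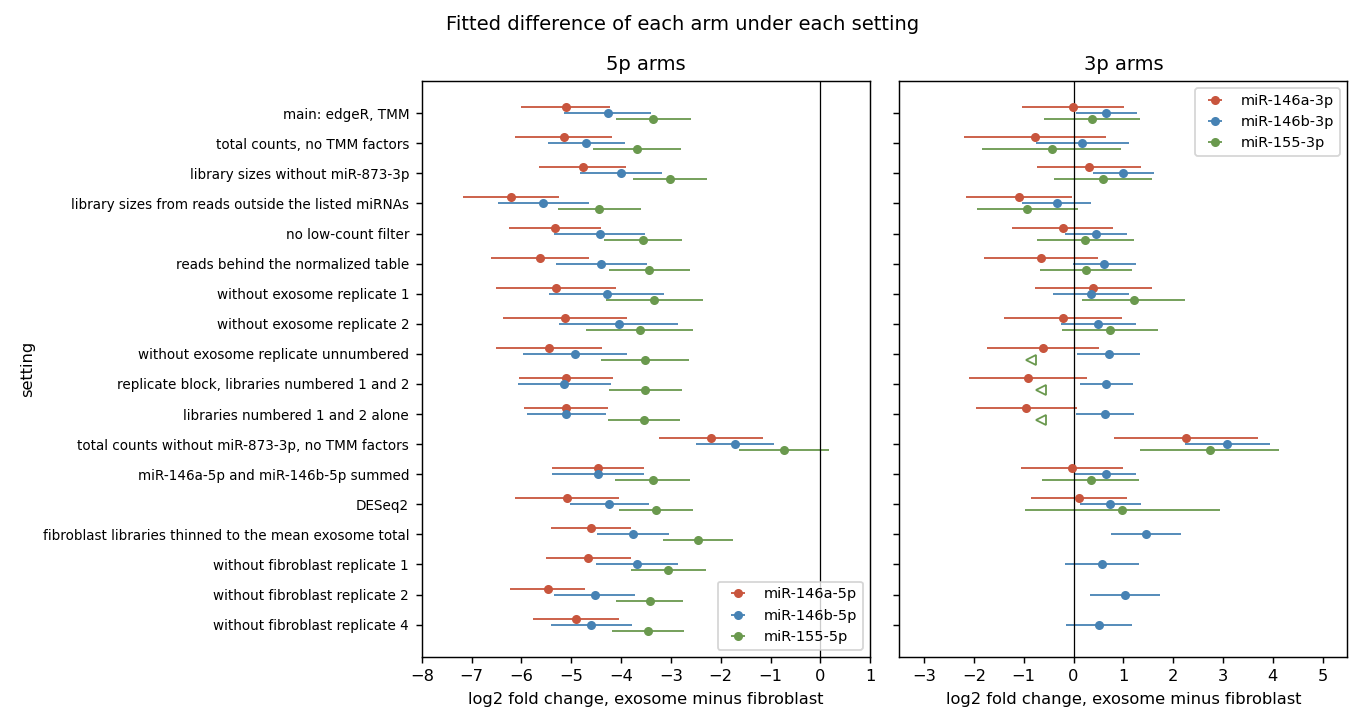
Log2 fold change, exosome minus fibroblast (horizontal axis), of the 5p arms (left) and 3p arms (right) under each setting, with bars for the standard error and open triangles for the bound of miR-155-3p where its exosome counts were 0. The 5p arms lie below 0 in every setting, least so with total counts without miR-873-3p, and the 3p arms lie on both sides of 0.

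The authors' deposited table compared the same groups. Of all 728 miRNAs in the authors' deposited table, 7.28% had a lower mean in exosomes with an adjusted p under 0.05. For miR-146a-5p the authors' deposited table gave a 36.9-fold higher fibroblast mean (adjusted p = 0.035). It gave 16.8-fold for miR-146b-5p (adjusted p = 0.080) and 9.45-fold for miR-155-5p (adjusted p = 0.083), both above the threshold in the authors' deposited table. No 3p arm passed in the authors' deposited table, where each had an adjusted p = 1. The reads behind that table differed from the raw counts: of raw fibroblast counts it held 89.1%, 88.9% and 89.1% for the 3p arms of miR-146a, miR-146b and miR-155, and 99.88%, 100% and 99.99% for the 5p arms. In exosomes it held 3 of 4 counts of miR-146a-5p, 3 of 5 of miR-146a-3p and 30 of 32 of miR-146b-3p, and the same number as the raw table for the other arms.

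By Pearson's r of log2 CPM over the 6 libraries, the patterns most like miR-146a-5p were miR-423-3p (r = 0.999), miR-24-3p (0.992) and miR-298-5p (0.991). Those most like miR-146b-5p were miR-101a-3p (0.983), miR-3586-3p (0.976) and let-7b-5p (0.975), and those most like miR-155-5p were miR-140-3p (0.993), miR-148b-5p (0.989) and miR-26b-5p (0.988). All 9 were called lower in exosomes, against 18.6% of all tested miRNAs. Picking by likeness to arms that separate the groups favours such calls. miR-148b-5p had 0 counts in every exosome library. The points share the 2 groups and the libraries' depth, so the r values describe the contrast between groups more than a pattern within them. The 2 members of the miR-146 seed family were not among each other's nearest 3.

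A list of other miRNAs linked to inflammatory signalling (24 families, both arms) was read beside the members. Of 51 tested entries 16 were lower, 4 higher and 31 not called. Over all tested miRNAs 18.6% were lower and 11.3% higher. Their median log2 fold change was -1.16, against -0.15 over all tested miRNAs. The most abundant were miR-22-3p (34.7-fold lower), miR-21-5p (37.5-fold), let-7i-5p (32.1-fold), miR-125b-5p (23.9-fold) and miR-31a-5p (43.6-fold), each called lower, and miR-181a-5p (log2 -3.63, SE 1.52), which did not pass (edgeR adjusted p = 0.055). The 4 higher entries, picked once their values were known, were miR-126a-3p (log2 4.85), miR-9a-5p (4.59), miR-511-3p (3.71) and miR-24-1-5p (1.79). These calls do not stand for whole families. The partner arms of miR-126a, miR-9a and miR-511 were not called, and miR-24-3p (log2 -3.23) and miR-24-2-5p (log2 -4.54) were called lower. miR-511-3p had 60, 27 and 0 counts in exosome libraries 1, 2 and unnumbered. miR-9a, like miR-146a, is induced by NF-κB in myeloid cells, and its 5p arm was 24.1-fold higher in exosomes.

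Since miR-146a and miR-155 are abundant in leukocytes, the miRNAs of blood cells were read beside them. The 10 arms of miR-142, miR-223, miR-150, miR-144 and miR-451 summed to 511, 409 and 355 CPM in fibroblast libraries 1, 2 and 4 and to 483, 603 and 679 CPM in the exosome libraries. None was at 0 in all exosome libraries or in any fibroblast library. miR-142-5p, made almost only in blood cells, had a mean of 96.3 CPM in fibroblasts and 69.2 in exosomes without a call in either direction (log2 -0.72, SE 0.66, adjusted p = 0.45 with edgeR). miR-223-3p of myeloid cells had 18.7 and 46.9 CPM and was not called (adjusted p = 0.13). miR-451-5p of red cells was the 1 arm of 10 called, higher in exosomes (log2 2.82, SE 0.70, edgeR adjusted p = 0.00052). It had 3, 10 and 11 counts in exosome libraries 1, 2 and unnumbered. Among all tested miRNAs 11.3% were called higher, so 1 arm of 10 is near that share. The part of other cells in the levels of miR-146 and miR-155 was not tested, and in bulk libraries fewer cells of a type and less RNA per cell cannot be told apart.

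The labelled cell type had its markers. The 12 arms of miR-143, miR-145, miR-199a, miR-214, miR-21 and miR-152, typical of fibroblasts and other mesenchymal cells, summed to 184552 to 487963 CPM in fibroblasts. Cardiomyocyte miRNAs (12 arms of miR-1, miR-133a, miR-133b, miR-208a, miR-208b and miR-499) summed to 286 to 337 CPM there. Epithelial miRNAs (9 arms of the miR-200 family) summed to 195 to 289 CPM and endothelial miRNAs (3 entries of miR-126a and miR-126b) to 80.8 to 195 CPM in fibroblasts. In exosomes the fibroblast sum was 2762 to 20570 CPM, while the cardiomyocyte sum was 446 to 699.9 CPM, the epithelial sum 768 to 1029 CPM and the endothelial sum 725 to 2232 CPM. With TMM factors, these last 3 sums were higher in every exosome library than in any fibroblast library. The guide strands of miR-146 and miR-155 went the other way there. As a share of all counts, without TMM factors, only the endothelial sum stayed higher without overlap. In the cardiomyocyte sum the unnumbered exosome library then lay below every fibroblast library. In the epithelial sum that exosome library lay below fibroblast library 2. The sums do not stand for each arm. Of 9 tested cardiomyocyte arms 2 were called higher, 1 lower (miR-499-5p, log2 -3.78) and 6 not called. Of 8 tested epithelial arms 3 were called higher and 5 not called. Of 2 tested endothelial arms 1 was called higher (miR-126a-3p) and 1 not called. Among all tested miRNAs 11.3% were called higher and 18.6% lower, and lists of 9, 8 and 2 arms are too small to be set apart from these shares. The part of these miRNAs in the results was not tested.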

How the data were processed

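Small RNA of 3 fibroblast and 3 exosome samples was sequenced. The main tests used the raw counts of each mature miRNA that the authors deposited. A second deposited table holds a normalized signal, in which each library's reads are scaled by a constant, as the values show. Every value there lay within 0.05 of a whole read, and these reads came to 99.3% to 99.8% of the raw counts. Its entry named rest, taken here as reads outside the listed miRNAs, held 63.1% to 84.4% of reads and was left out of tests. The authors' deposited comparison gave mean normalized counts, their ratio (fold change), its log2 value and p-values, per the file headers. Which group is A or B there was read from its group means, which equal those of the normalized table. Per the submitters' processing notes, CASAVA 1.8.2, cutadapt 1.2.1 and DESeq were used with build rn5; how reads were aligned and counted is not given in the sources used here.

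Column names gave the samples, except 1 exosome column that has no number. Counts were fitted over all miRNAs with edgeR 4.0.16 in R 4.3.3 (TMM, filterByExpr with minimum count 10 and minimum total 15, quasi-likelihood test, two-sided, Benjamini-Hochberg threshold 0.05). The filter corresponds to 7.81 CPM at the median library. The 3 5p arms and miR-146b-3p reached it in all 6 libraries, miR-146a-3p in 5 and miR-155-3p in 4, so that all 6 arms were tested. Each standard error is the size of the log2 fold change over the root of its F statistic. For arm usage, edgeR's diffSpliceDGE was run with hairpins as genes. Scripts were tested on simulated data. Members, lists and tests were chosen with earlier results of these data known. Named miRNAs were the members, the 3 with the highest Pearson r to each guide strand (log2 CPM, prior count 2), entries that share a seed and the 6 most abundant of the inflammation-linked list. DESeq2 1.42.0 and the other settings are covered in the closing section.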

Additional observations from a re-analysis of the deposited data

How the results depend on the processing

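Over 16 other fits of miR-146a-5p and of miR-146b-5p and 17 of miR-155-5p, the 5p arms kept their negative sign, and miR-146b-5p its call. Leaving out 1 library at a time ended no 5p call. With total counts without miR-873-3p and no TMM factors, chosen after seeing the data, miR-146a-5p (log2 -2.20) and miR-155-5p (log2 -0.72) were not called; the counts of all miRNAs lower and higher were then 36 and 378. They were 237 and 31 when libraries were sized by their reads outside the miRNA list, against 130 and 79, and 43 were higher with total counts. Without 1 library each, 86 to 140 were lower and 46 to 78 higher, and 18 to 48 hairpins had the 5p arm lower, against 43 and 16 with the fibroblast libraries thinned to 117449 counts, where fewer hairpins were tested.

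Arm usage of miR-146b was called in all 15 other fits. That of miR-146a lost its call in libraries 1 and 2 alone (-4.16, edgeR adjusted p = 0.055). That of miR-155 lost it with total counts (-3.24) and with total counts without miR-873-3p (-3.46). Where the unnumbered library was absent it was also lost, and with 0 exosome counts of the 3p arm only lower limits can be given, which fix no direction: -2.67 without that library, -2.88 in libraries 1 and 2 alone and -2.85 under the block. Without 1 library each, it was -4.54 to -2.67, the upper end being that limit. Without any 1 fibroblast library, and with thinning, miR-146a-3p and miR-155-3p did not pass the count filter, and these hairpins gave no value.

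The 3p arms changed sign, uncalled except where stated. miR-146a-3p was 0.31 with library sizes without miR-873-3p, 0.11 with DESeq2, 2.26 with total counts without miR-873-3p and -0.61 to 0.40 without 1 exosome library. miR-146b-3p was -0.34 with library sizes from other reads. miR-155-3p was -0.44 with total counts and -0.93 with library sizes from other reads. As a bound, it was at most -0.66 under the block and in libraries 1 and 2 alone (called lower in the latter) and at most -0.85 without the unnumbered library (called lower), and without 1 exosome library it was -0.85 to 1.21 (log2). Exosome counts of 4 to 32 per arm limit all of these.

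The replicate block could use only the libraries numbered 1 and 2; the deviations of same-numbered libraries had correlations of -0.07 and 0.16, and they were not treated as pairs. With the block 142 miRNAs were lower and 100 higher and the 5p arms were called (log2 -5.11, -5.14 and -3.51 for miR-146a-5p, miR-146b-5p and miR-155-5p).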
